A study of Homo sapiens with 58 samples.

Results

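NR1H4 and 9 genes of bile acid signalling, transport and synthesis were followed through HepG2 cells exposed to plant extracts. The 10 genes, NR1H4, NR0B2, ABCB11, ABCB4, SLC51A, SLC51B, FGF19, CYP27A1, BAAT and SLC27A5, were picked by name from 60675 gene identifiers in the count table. Each symbol matched 1 identifier. HepG2 is a human hepatocellular carcinoma line, so every library comes from a transformed hepatocyte-derived culture and none from liver tissue.

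NR1H4 encodes the farnesoid X receptor (FXR), the nuclear receptor that bile acids activate in liver and intestine, where it binds DNA with a retinoid X receptor partner. Active FXR is known to raise the corepressor NR0B2 and the exporters ABCB11, ABCB4, SLC51A and SLC51B, and thereby to limit bile acid synthesis and favour efflux. In the intestine it also raises FGF19, a hormone that signals to hepatocytes through the receptor FGFR4 and its coreceptor KLB.

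The 58 libraries hold RNA-seq of cells treated for 24 h, and the labels give all of them the same batch letter. Cells received a water extract of the formula Sayeok-tang or Bojungikgi-tang, or an ethanol extract of a single herb: Scutellariae Radix (skullcap root), Pinelliae Tuber, Coptidis Rhizoma, Zizyphi Fructus (jujube), or ginger either fresh (Zingiberis Rhizoma Recens) or dried (Zingiberis Rhizoma). The low, medium and high doses were 20, 100 and 500 µg/mL, except for Coptidis Rhizoma, whose low and medium doses were 11.2 and 56 µg/mL. Vehicle cells, with 3 libraries, received dimethyl sulfoxide (DMSO), given as 0.1% in the sample labels and as 2% in the series text. Groups had 3 libraries, except 2 at each Bojungikgi-tang dose and at the Zingiberis Rhizoma high dose, and 1 wherever Zizyphi Fructus or Coptidis Rhizoma was given. No source used here says that replicates were separate cultures, so p-values measure the spread between libraries, which may be technical.

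Library totals lay between 22143845 and 31859981 counts. Levels are given as CPM, read counts relative to a library total that was scaled by trimmed mean of M-values (TMM). Differences are log2 fold changes with their standard error (SE) from edgeR's quasi-likelihood test. A gene was called changed at a Benjamini-Hochberg adjusted p below 0.05 over the 13945 genes tested. Labels of the vehicle libraries carry a prefix of their own, as do those of the formulas, of the 2 gingers, of Pinelliae Tuber with Scutellariae Radix, and of Coptidis Rhizoma with Zizyphi Fructus. If that prefix marks a set handled together, set and treatment cannot be told apart against vehicle. High against low dose, and the paired extracts against each other, lie within a prefix. Replicate 3 of the low doses of Scutellariae Radix and Zingiberis Rhizoma stood apart from the other replicates of its group. The Zizyphi Fructus low library was set with them, but it is the only library of its group. An unusual library and an effect of the dose cannot be told apart there. These are the 3 libraries that stood apart, and calls of the 10 genes lost or gained without them are given. Differences in dose change between extracts were not rerun without them.

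All 8 hepatocyte-lineage markers, among them albumin (ALB), were above 1 CPM in all 58 libraries. Their summed level was 29900 to 30300 CPM at the Scutellariae Radix high dose, 34800 to 37800 at the Sayeok-tang high dose, 35100 to 36300 at the Zingiberis Rhizoma high dose and 37400 to 39000 at the Zingiberis Rhizoma Recens high dose, against 40500 to 41100 CPM in vehicle cells. It was also below vehicle at the Scutellariae Radix medium dose (33400 to 37300 CPM) and the Bojungikgi-tang high dose (39100 to 39700 CPM). The Coptidis Rhizoma medium and Zizyphi Fructus low libraries were below vehicle as well (34700 and 35800 CPM). The sum lay above vehicle at the low and medium doses of Zingiberis Rhizoma Recens (42900 to 44700 and 43700 to 45400 CPM). It did so too at the low and medium doses of Zingiberis Rhizoma, Pinelliae Tuber and Bojungikgi-tang. The Pinelliae Tuber high dose and the other Zizyphi Fructus libraries were also above vehicle. Of 8 intestinal markers, 1 (FABP2) had a median of at least 1 CPM, and SLC10A2 had no reads in any library. The leukocyte marker PTPRC also had none. Of 5 cholangiocyte markers, KRT19, SOX9 and EPCAM were at 119 CPM or more in every library, while KRT7 and CFTR stayed below 1 CPM. That list summed to 484 to 575 CPM, and to 508 to 515 CPM in vehicle cells. The summed fibroblast list, most of it PDGFRB with COL1A2 and DCN at 0, was 20.7 to 24.1 CPM at the Zingiberis Rhizoma Recens high dose and 3.86 to 4.79 CPM at the Scutellariae Radix high dose, against 10.2 to 11.8 CPM in vehicle cells. The summed leukocyte list, almost all of it CD68, was 64.5 to 74.2 CPM at the Zingiberis Rhizoma high dose and 53.2 to 56.7 at the Sayeok-tang high dose, against 31.3 to 34.8 CPM in vehicle cells. The part of these marker sums in the results below was not tested, and in bulk RNA fewer cells of a type and less RNA per cell cannot be told apart.

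RefSeq promoters on GRCh38.p14 matched 7 of the 10 genes, with 2 entries for BAAT. FXR is known to bind an inverted repeat of AGGTCA with 1 base of any kind between the copies, AGGTCA then N then TGACCT, which reads the same on both strands. No promoter among 35116 held it exactly in the 250 bases before the annotated RefSeq start. For NR1H4, SLC51A, CYP27A1 and SLC27A5 these 250 bases lie inside the span of the gene given below. Sequence before the outer start of that span was not searched for them. The closest stretch of 13 bases differed at 2 of the 12 fixed letters in SLC51B and ABCB11, a closeness that 0.9% of all promoters reached. It differed at 3 letters in SLC27A5 (8.9% of promoters), at 4 in NR1H4, SLC51A and both BAAT entries (46.5%), and at 5 in CYP27A1 (95.2%). Both SLC51 promoters are shown because their genes encode partner subunits that moved apart, ABCB11 because it was almost silent here, and NR1H4 because it changed most. Each is read 5′ to 3′ towards the start, with its closest stretch in capitals. A match describes letters only and is not evidence of binding. Only the stretch closest to the perfect repeat was kept in each promoter, so the capitals need not mark a site that FXR binds.
NR1H4 (chr12:100503110-100503359, plus strand): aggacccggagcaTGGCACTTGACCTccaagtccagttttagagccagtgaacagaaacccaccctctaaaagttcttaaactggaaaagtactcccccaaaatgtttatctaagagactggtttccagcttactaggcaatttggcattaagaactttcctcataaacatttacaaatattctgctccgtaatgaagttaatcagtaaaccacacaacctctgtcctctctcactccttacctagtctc
SLC51A (chr3:196216284-196216533, plus strand): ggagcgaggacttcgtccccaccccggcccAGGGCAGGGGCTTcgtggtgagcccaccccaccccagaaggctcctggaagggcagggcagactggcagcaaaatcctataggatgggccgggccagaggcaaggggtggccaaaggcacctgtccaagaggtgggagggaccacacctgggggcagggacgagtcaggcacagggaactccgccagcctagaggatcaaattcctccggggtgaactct
SLC51B (chr15:65045137-65045386, plus strand): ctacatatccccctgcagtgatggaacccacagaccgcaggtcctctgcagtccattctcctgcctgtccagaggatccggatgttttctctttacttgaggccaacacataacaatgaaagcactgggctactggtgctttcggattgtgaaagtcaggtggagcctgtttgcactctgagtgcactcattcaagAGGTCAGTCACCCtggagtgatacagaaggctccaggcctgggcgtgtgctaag
ABCB11 (chr2:169031325-169031574, minus strand): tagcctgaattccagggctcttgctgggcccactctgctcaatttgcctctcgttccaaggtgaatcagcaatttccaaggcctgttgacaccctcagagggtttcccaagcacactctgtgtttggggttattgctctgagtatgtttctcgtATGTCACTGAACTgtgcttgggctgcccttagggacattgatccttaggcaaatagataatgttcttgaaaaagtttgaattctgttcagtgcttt
The stretch began 54 bases before the start in SLC51B and 96 bases before it in ABCB11. It lay 220 bases before the start in SLC51A and 237 bases before it in NR1H4.

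Of the 10 genes, 8 were at 1 CPM or more in all 58 libraries and were tested, while ABCB11 and FGF19 were below 1 CPM in every library. To set genes side by side, levels were divided by the length of all annotated exons of a gene merged. That length can exceed the transcript present, so the scale is rough. On it CYP27A1 was the most abundant in vehicle cells at 48.0 ± 0.265 CPM per kb (SD, n = 3). NR0B2 followed at 40.9 ± 2.24 and NR1H4 at 20.4 ± 0.42. SLC51B stood at 7.17 ± 0.538 CPM per kb, against 0.651 ± 0.101 CPM per kb for its partner SLC51A. Much of that gap lies in the merged lengths, 940 and 5293 bases. In CPM the subunits stood at 6.74 ± 0.506 and 3.44 ± 0.535. ABCB4, SLC27A5 and BAAT stood at 2.18 ± 0.0116, 1.08 ± 0.0548 and 0.946 ± 0.048 CPM per kb.

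**Figure D1:**
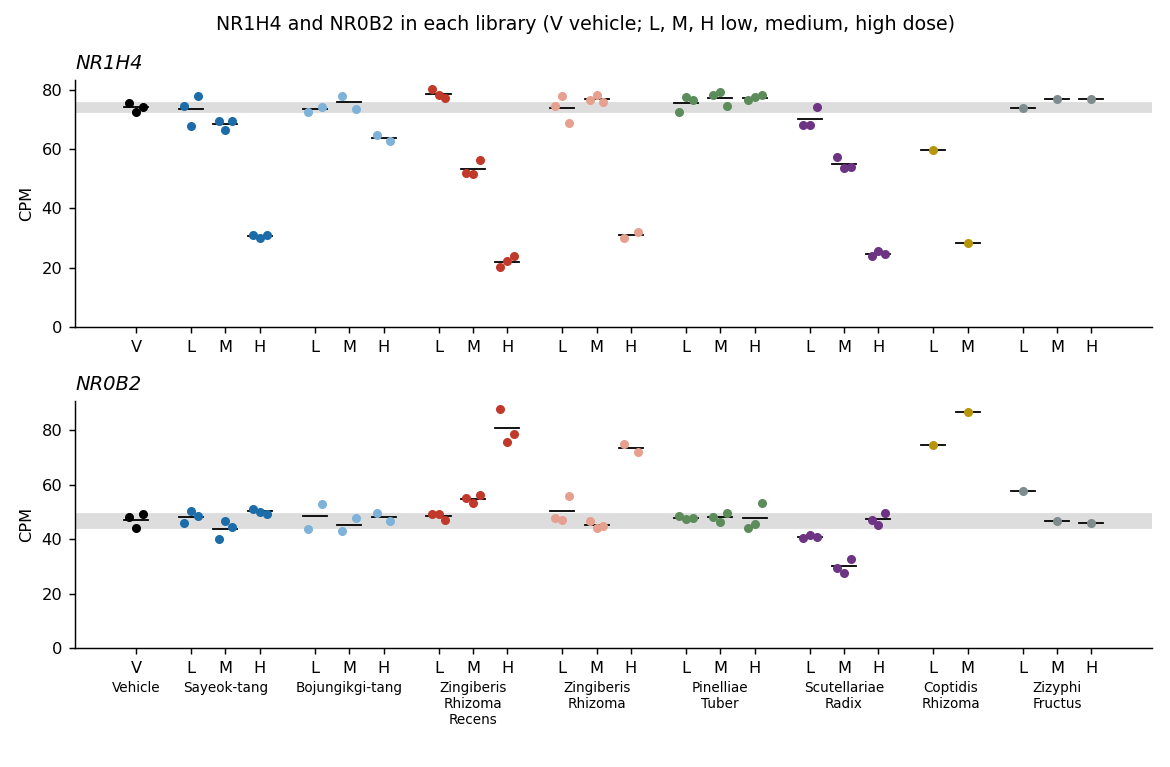
Level of NR1H4 (top) and NR0B2 (bottom) in CPM in each of the 58 libraries. Points are libraries, black bars are group means, and the grey band spans the 3 vehicle libraries; NR1H4 lies between 20.3 and 31.9 CPM at the high doses of Sayeok-tang, both gingers and Scutellariae Radix, while NR0B2 is above the band at the high doses of both gingers and below it at the Scutellariae Radix medium dose.

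NR1H4 (ENSG00000012504, GRCh38 chr12:100473708-100564413, plus strand) fell 2.39- to 3.35-fold at the high doses of 4 extracts. It had 20.3, 22.2 and 23.9 CPM at the Zingiberis Rhizoma Recens high dose, 24.0, 25.7 and 24.6 CPM at the Scutellariae Radix high dose, 30.9, 30.1 and 31.1 CPM at the Sayeok-tang high dose and 29.9 and 31.9 CPM at the Zingiberis Rhizoma high dose, against 75.5, 72.4 and 74.1 CPM in vehicle cells. The highest of these libraries had 31.9 CPM and the lowest of vehicle 72.4 CPM, so no group overlapped vehicle. The log2 fold changes against vehicle were -1.74 (SE 0.052, edgeR adjusted p = 1.1e-29), -1.58 (SE 0.051, 9.7e-29), -1.27 (SE 0.05, 6.2e-25) and -1.26 (SE 0.058, 9.5e-23) in that order, or 3.35-, 2.99-, 2.41- and 2.39-fold lower.

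Calls at the medium dose split the extracts that lowered NR1H4 at the high dose. At the Zingiberis Rhizoma Recens medium dose NR1H4 had 51.8, 51.7 and 56.3 CPM (log2 -0.47, SE 0.047, edgeR adjusted p = 1.9e-10 against vehicle), and at the Scutellariae Radix medium dose 57.4, 53.7 and 54.1 CPM (log2 -0.43, SE 0.047, 1.7e-09). At the medium doses of Zingiberis Rhizoma (76.6, 78.0 and 75.7 CPM) and Sayeok-tang (69.3, 66.3 and 69.4 CPM) no call was made. All 3 libraries of each called medium dose were below the vehicle range, and the 2 called groups overlapped each other. The uncalled Sayeok-tang medium libraries were below the vehicle range as well (log2 -0.12, SE 0.046, edgeR adjusted p = 0.16). At the Bojungikgi-tang high dose NR1H4 had 64.7 and 62.8 CPM, a small fall (log2 -0.22, SE 0.052, edgeR adjusted p = 0.0091) that was not called without replicate 2 (-0.24, edgeR adjusted p = 0.068) or without replicate 3 (-0.19, 0.11). No low dose and no Pinelliae Tuber dose was called, and the Pinelliae Tuber libraries spanned 72.6 to 79.2 CPM.

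In the order of group levels, the Zingiberis Rhizoma Recens high dose was lowest and its libraries did not overlap those of the Scutellariae Radix high dose above it. The Zingiberis Rhizoma and Sayeok-tang high doses overlapped. The highest mean, 78.5 ± 1.56 CPM (SD, n = 3), was at the Zingiberis Rhizoma Recens low dose and overlapped the next group. Over the 24 group means the spread of NR1H4, an SD of 0.60 on the log2 scale, was above that of 97.8% of the tested genes. The 3 genes whose group means ran closest to it were C1orf115 (Pearson r = 0.989), FOXA1 (0.985) and ACSM2A (0.979). The 24 groups are not independent, since each extract enters at several doses.

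Within extracts, where no vehicle library enters, the high dose gave the same picture. NR1H4 was lower at the high than at the low dose by a log2 value of -1.83 (SE 0.052) in Zingiberis Rhizoma Recens, -1.5 (SE 0.051) in Scutellariae Radix, -1.26 (SE 0.05) in Sayeok-tang and -1.25 (SE 0.058) in Zingiberis Rhizoma. The edgeR adjusted p was 9.4e-23 or lower in each, and the libraries of the 2 doses did not overlap. The estimates were -0.20 for Bojungikgi-tang and 0.03 for Pinelliae Tuber, neither called; without the 3 libraries that stood apart, Bojungikgi-tang was (log2 -0.20, edgeR adjusted p = 0.02).

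At matched high doses the extracts of a pair differed in NR1H4. It averaged 22.1 ± 1.81 CPM (n = 3) with Zingiberis Rhizoma Recens and 30.9 ± 1.47 CPM (n = 2) with Zingiberis Rhizoma, a log2 difference of -0.48 (SE 0.063, edgeR adjusted p = 6e-08). At the medium dose it averaged 53.3 ± 2.67 CPM with Zingiberis Rhizoma Recens and 76.8 ± 1.14 CPM with Zingiberis Rhizoma (log2 -0.53, SE 0.047, edgeR adjusted p = 9.5e-12; SD, n = 3 each). Sayeok-tang stood at 30.7 ± 0.506 CPM (n = 3), against 63.7 ± 1.36 CPM (n = 2) for Bojungikgi-tang (log2 -1.05, SE 0.055, edgeR adjusted p = 5.8e-20). Pinelliae Tuber stood at 77.3 ± 0.818 CPM, against 24.8 ± 0.883 CPM for Scutellariae Radix (log2 1.64, SE 0.051, edgeR adjusted p = 1.9e-29; SD, n = 3 each).

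NR0B2 (ENSG00000131910, GRCh38 chr1:26911489-26913966, minus strand), an orphan receptor also called SHP that lacks a DNA-binding domain and represses other nuclear receptors, did not follow NR1H4. It was higher at the high dose of both gingers, where NR1H4 was low. It had 87.8, 75.7 and 78.6 CPM at the Zingiberis Rhizoma Recens high dose and 74.9 and 72.0 CPM at the Zingiberis Rhizoma high dose, against 48.2, 44.3 and 49.3 CPM in vehicle cells. All libraries of both gingers at this dose lay above the vehicle range. The log2 fold changes were 0.77 (SE 0.066, edgeR adjusted p = 1.1e-13) and 0.64 (SE 0.074, 7.5e-10). NR0B2 was also higher at the fresh ginger medium dose, with 55.1, 53.4 and 56.2 CPM (log2 0.22, SE 0.068, edgeR adjusted p = 0.028). That call was lost without replicate 1 or 2 of vehicle or replicate 1 or 3 of the medium dose (log2 0.17 to 0.23, edgeR adjusted p = 0.052 to 0.16).

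With Sayeok-tang, NR0B2 had 51.1, 50.2 and 49.4 CPM at the high dose, a log2 fold change of 0.09 with a 95% interval of -0.05 to 0.22 that was not called, beside a fall of NR1H4 close to that with dried ginger. With Scutellariae Radix the doses did not run in one direction. NR0B2 had 40.6, 41.5 and 41.0 CPM at its low dose, 29.6, 27.7 and 32.9 CPM at its medium dose and 47.2, 45.2 and 49.8 CPM at its high dose. The medium dose was the lowest of all 24 groups and overlapped none, and the high dose lay on the vehicle range. Against vehicle the log2 fold changes were -0.20 (SE 0.069, edgeR adjusted p = 0.05, just inside the threshold), -0.66 (SE 0.072, 1.2e-09) and 0.00. The low-dose call was lost without replicate 1 or 3 of vehicle, or on leaving out each replicate of the low dose in turn (log2 -0.21 to -0.17, edgeR adjusted p = 0.064 to 0.19), and with RLE scaling (0.052), edgeR's filterByExpr (0.059), only the groups compared (0.076) or without the 3 libraries that stood apart (0.087). The high dose stood above the medium dose by a log2 value of 0.66 (SE 0.071, edgeR adjusted p = 8e-11), a comparison chosen after the levels had been seen. NR1H4 over the same step was lower at the high dose, with a log2 value of -1.15 (SE 0.052, edgeR adjusted p = 3.1e-23).

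Coptidis Rhizoma and Zizyphi Fructus had 1 library a dose, so their values have no replicate check and no test. NR1H4 was 28.4 CPM at the Coptidis Rhizoma medium dose and 59.5 CPM at the low dose, against 72.4 to 75.5 CPM in vehicle cells. NR0B2 was 86.8 and 74.6 CPM in the same libraries, the medium dose lying below replicate 1 of the Zingiberis Rhizoma Recens high dose (87.8 CPM). Genes outside the vehicle range and at least 1.5-fold from the vehicle mean were counted. Of the 8 genes, these were 2 (NR1H4 and NR0B2) at the medium dose and 1 (NR0B2) at the low dose. Of all tested genes, 21.1% and 5.96% met this rule. No Zizyphi Fructus dose moved any of the 8 genes that far, against 3.41%, 2.58% and 2.4% of tested genes at the low, medium and high dose. Across all 24 group means, NR1H4 and NR0B2 had a Pearson r of -0.555 on the log2 scale. WIPI1 (0.954) and MAPKAPK2 (0.952) ran closest to NR0B2.

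ABCB4 (ENSG00000005471, GRCh38 chr7:87401697-87480435, minus strand), the floppase that delivers phosphatidylcholine to bile, fell at the high doses of these 4 extracts as well. It had 10.9, 11.4 and 10.6 CPM at the Zingiberis Rhizoma Recens high dose, 10.0, 10.3 and 10.8 CPM at the Scutellariae Radix high dose, 11.6, 11.5 and 10.8 CPM at the Sayeok-tang high dose and 11.5 and 11.9 CPM at the Zingiberis Rhizoma high dose, against 16.9, 16.9 and 16.8 CPM in vehicle cells. The highest of these libraries had 11.9 CPM, below every vehicle library. The log2 fold changes were -0.62 (SE 0.063), -0.70 (SE 0.063), -0.58 (SE 0.062) and -0.53 (SE 0.071), with an edgeR adjusted p of 2.9e-08 or lower.

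ABCB4 also fell at the medium doses of Scutellariae Radix (log2 -0.33, SE 0.061, edgeR adjusted p = 5.9e-05) and Zingiberis Rhizoma Recens (log2 -0.20, SE 0.061, 0.022). The fresh ginger call was lost on leaving out each vehicle replicate in turn, or replicate 1 or 2 of that dose (log2 -0.21 to -0.19, edgeR adjusted p = 0.051 to 0.093), and also with no filter on low counts (0.14) or with DESeq2 (adjusted p = 0.053). ABCB4 fell at the Pinelliae Tuber high dose too, with 14.6, 13.7 and 14.7 CPM (log2 -0.23, SE 0.06, edgeR adjusted p = 0.0056), where NR1H4 did not fall. Group means of ABCB4 and NR1H4 had a Pearson r of 0.917 over the 24 groups, the highest among pairs of the 8 genes. TJP3 (0.945), FBXO31 (0.942) and ALAD (0.940) ran closer still to ABCB4.

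SLC51A (ENSG00000163959, GRCh38 chr3:196211487-196243178, plus strand) and SLC51B (ENSG00000186198, GRCh38 chr15:65045370-65053396, plus strand) encode the alpha and beta subunits of the basolateral bile acid exporter, which works only as a pair. Calls against vehicle went up for SLC51A and down for SLC51B. At the high dose both were called with Zingiberis Rhizoma Recens and Sayeok-tang only. SLC51A had 7.43, 7.43 and 7.30 CPM at the Zingiberis Rhizoma Recens high dose, 6.45 and 5.63 CPM at the Zingiberis Rhizoma high dose and 4.70, 4.61 and 5.58 CPM at the Sayeok-tang high dose, against 3.46, 2.90 and 3.97 CPM in vehicle cells. No library of these groups lay within the vehicle range. The log2 fold changes were 1.10 (SE 0.122, edgeR adjusted p = 2e-10), 0.81 (SE 0.139, 4.3e-06) and 0.54 (SE 0.127, 0.00064). With Scutellariae Radix at the high dose SLC51A averaged 4.03 CPM, overlapped vehicle and was not called (log2 0.23, edgeR adjusted p = 0.13). Without replicate 3 of vehicle it was called (log2 0.35, edgeR adjusted p = 0.044).

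SLC51B had 4.15, 3.66 and 4.29 CPM at the Scutellariae Radix high dose, 4.16, 4.76 and 4.29 CPM at the Sayeok-tang high dose and 6.23, 4.52 and 3.96 CPM at the Zingiberis Rhizoma Recens high dose, against 6.54, 6.36 and 7.31 CPM in vehicle cells. All these libraries were below the vehicle range, with replicate 1 of fresh ginger just beneath it. The log2 fold changes were -0.74 (SE 0.129, edgeR adjusted p = 3.9e-06), -0.61 (SE 0.127, 0.00011) and -0.46 (SE 0.126, 0.0022). With Zingiberis Rhizoma at the high dose SLC51B had 6.57 and 6.61 CPM, within the vehicle range (log2 -0.03, 95% interval -0.31 to 0.24, not called).

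At medium doses SLC51A rose and SLC51B fell with both Zingiberis Rhizoma Recens (log2 0.68 and -0.42, edgeR adjusted p = 0.00013 and 0.021) and Scutellariae Radix (log2 0.49 and -0.83, 0.0048 and 4.3e-06). SLC51B had 3.28, 3.94 and 4.16 CPM at the Scutellariae Radix medium dose, the lowest group of the series. The fresh ginger call of SLC51B was lost without replicate 3 of vehicle or replicate 2 or 3 of the medium dose (log2 -0.38 to -0.36, edgeR adjusted p = 0.095 to 0.12), and the skullcap call of SLC51A without replicate 2 of vehicle (log2 0.37, 0.061). The subunits had a Pearson r of -0.543 over the 24 groups. Exons of SLC51A share 389 bases with PCYT1A on the opposite strand, a gene with 115357 counts in all libraries against 6417 for SLC51A. The library kit keeps strand, but whether counting used strand is not given in the sources used here. PCYT1A itself rose at the high doses of Zingiberis Rhizoma Recens (log2 0.25), Zingiberis Rhizoma (0.31), Sayeok-tang (0.25) and Scutellariae Radix (0.13), and its part in the SLC51A values was not tested. At the Zingiberis Rhizoma Recens medium dose, where SLC51A rose, PCYT1A had a log2 fold change of 0.05 and no call, and at the Scutellariae Radix medium dose 0.07 and no call.

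**Figure D2:**
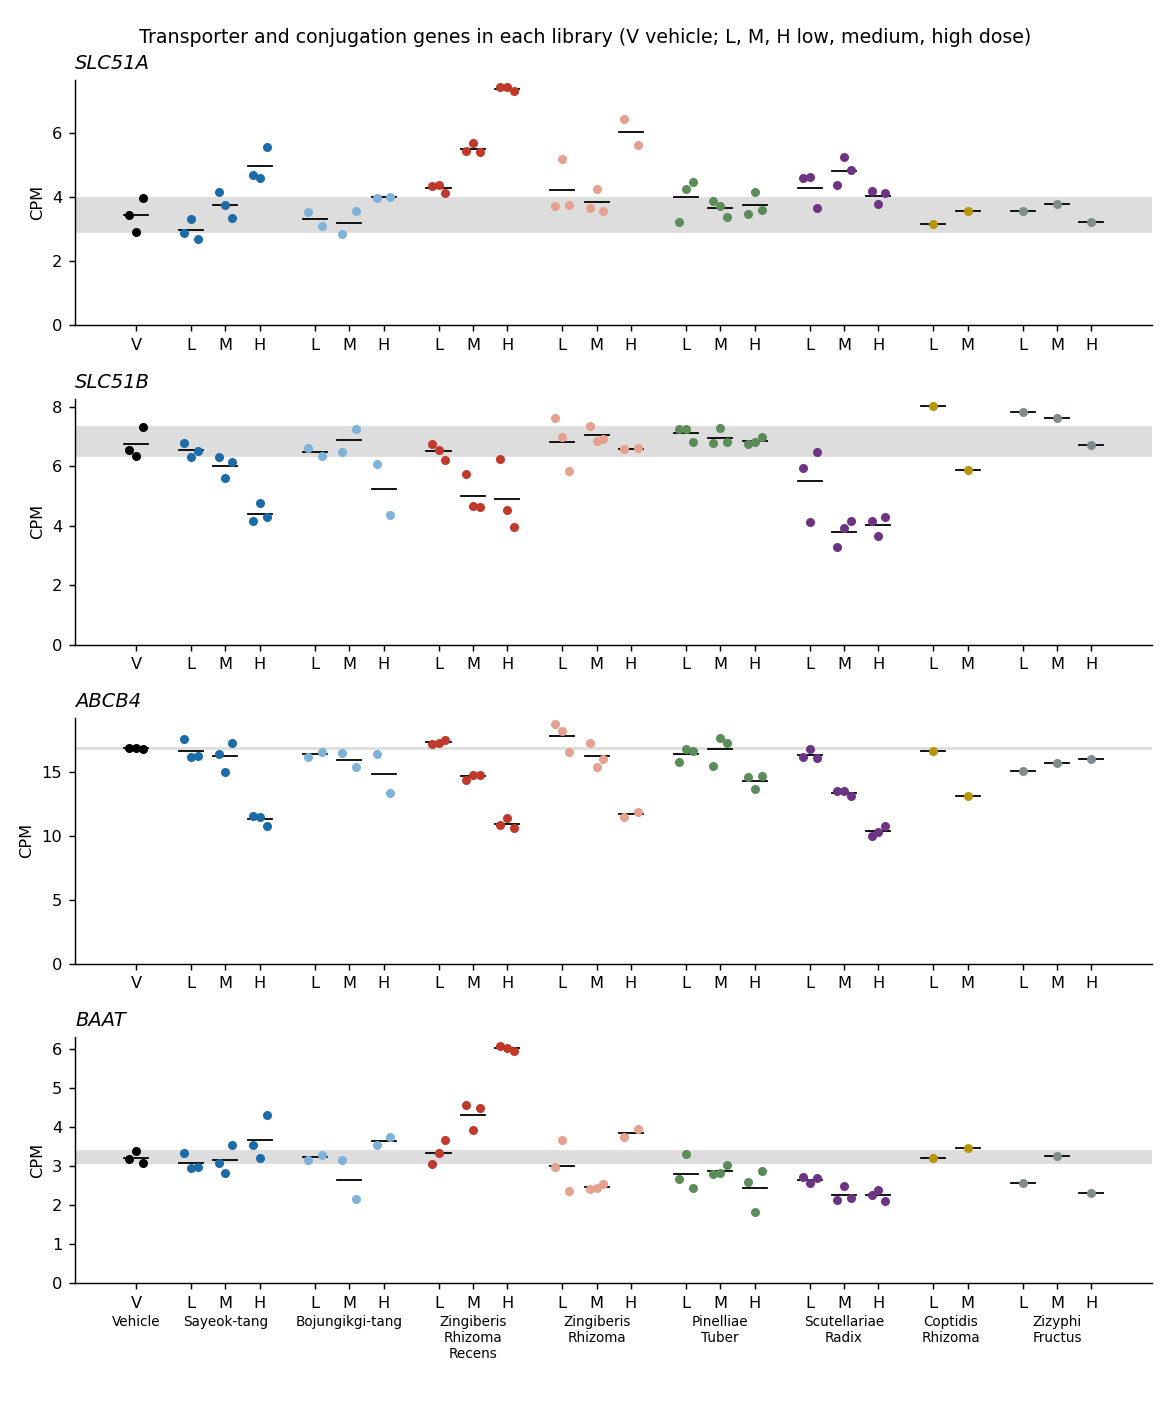
Levels in CPM of SLC51A, SLC51B, ABCB4 and BAAT in each library. Points are libraries, black bars are group means and the grey band spans the 3 vehicle libraries; SLC51A rises above the band at the high doses of both gingers while SLC51B is within or below it, and BAAT reaches 6.08 CPM with Zingiberis Rhizoma Recens.

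The canalicular bile salt export pump ABCB11 (ENSG00000073734, GRCh38 chr2:168915498-169031324, minus strand) had 6 counts in all, 1 in each of 6 libraries, and at most 0.0392 CPM. FGF19 (ENSG00000162344, GRCh38 chr11:69698232-69704642, minus strand) had 32 counts over 21 libraries, at most 3 in a library and 0.118 CPM. A count of 0 allows up to 0.0921 to 0.137 CPM depending on the library. These limits cover counting error only. No difference between groups was detectable for either gene at this depth, so 2 of the best known FXR targets gave no reading here.

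CYP27A1 (ENSG00000135929, GRCh38 chr2:218781749-218815293, plus strand), the mitochondrial sterol 27-hydroxylase that begins the alternative route of bile acid synthesis, fell most with Scutellariae Radix. It had 100, 95.5 and 101 CPM at that high dose, against 143, 144 and 142 CPM in vehicle cells (log2 -0.53, SE 0.041, edgeR adjusted p = 3.6e-15). The medium dose stayed on the vehicle range with 144, 142 and 145 CPM (log2 0.00). Smaller falls were called at the high doses of Zingiberis Rhizoma Recens (128, 109 and 110 CPM, log2 -0.31, SE 0.041, edgeR adjusted p = 1.6e-08) and Sayeok-tang (120, 120 and 118 CPM, log2 -0.26, SE 0.041, 8.4e-07). CYP27A1 was also called lower at the Zingiberis Rhizoma Recens medium dose (log2 -0.14, SE 0.041, edgeR adjusted p = 0.015), a call lost without replicate 2 of that dose (-0.12, 0.093). Zingiberis Rhizoma had 142 and 152 CPM at the high dose and was not called against vehicle (log2 0.04). At matched high doses CYP27A1 was lower with fresh than with dried ginger by a log2 value of -0.35 (SE 0.046, edgeR adjusted p = 5.3e-08).

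BAAT (ENSG00000136881, GRCh38 chr9:101360417-101383519, minus strand) encodes the enzyme that joins bile acids to glycine or taurine, and it moved in opposite directions with fresh ginger and skullcap root. It had 6.08, 6.01 and 5.93 CPM at the Zingiberis Rhizoma Recens high dose and 2.25, 2.38 and 2.11 CPM at the Scutellariae Radix high dose, against 3.17, 3.39 and 3.07 CPM in vehicle cells. Neither set overlapped vehicle. The log2 fold changes were 0.90 (SE 0.129, edgeR adjusted p = 1.1e-07) and -0.51 (SE 0.147, 0.0026). The medium doses were called in the same directions, with log2 values of 0.43 (edgeR adjusted p = 0.029) and -0.50 (0.011). The fresh ginger call at the medium dose was lost without replicate 1 or 3 of vehicle or replicate 1 or 3 of the dose (log2 0.39 to 0.42, edgeR adjusted p = 0.082 to 0.12), with no filter on low counts (0.062) and with DESeq2 (0.075), and the skullcap call without replicate 2 of vehicle (-0.46, 0.05, just outside the threshold) or replicate 1 of the dose (-0.45, 0.058). Zingiberis Rhizoma had 3.73 and 3.94 CPM at the high dose (log2 0.26, not called), and BAAT was higher with fresh than with dried ginger by 0.65 (SE 0.144, edgeR adjusted p = 0.00064).

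SLC27A5 (ENSG00000083807, GRCh38 chr19:58479512-58512413, minus strand), the ligase that activates bile acids with coenzyme A before conjugation, was not called against vehicle at any dose of the 6 replicated extracts. At the Scutellariae Radix low dose (log2 0.26, edgeR adjusted p = 0.062) it was called without replicate 1 or 2 of that dose (0.31 in both fits, 0.045 and 0.041). Its libraries spanned 7.27 to 11.8 CPM. It was called within Scutellariae Radix, with 8.89, 8.19 and 8.39 CPM at the high dose against 9.75, 9.76 and 11.8 CPM at the low dose (log2 -0.30, SE 0.093, edgeR adjusted p = 0.0061). Replicate 3 of the low dose, which stood apart, decided that call (log2 -0.20, edgeR adjusted p = 0.094 without it). Its exons share 1131 bases with ZNF446 on the opposite strand, which had 7819 counts in all libraries against 14030 for SLC27A5.

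**Figure D3:**
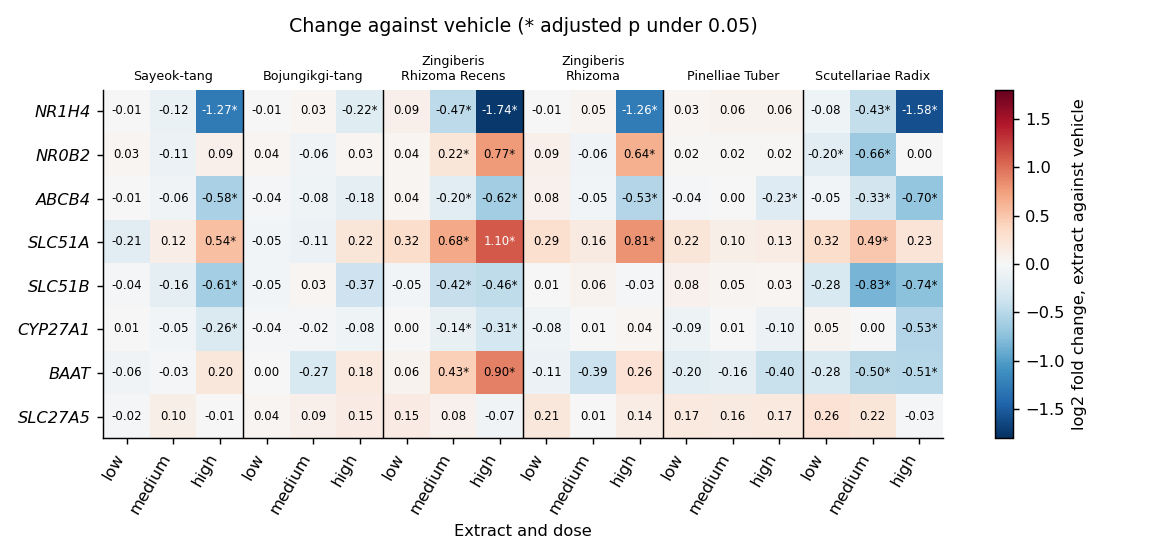
Log2 fold change against vehicle (colour and printed value) of the 8 tested genes, in rows, for 3 doses of 6 extracts, in columns; a star marks an edgeR adjusted p below 0.05. NR1H4 runs from -1.74 to 0.09, and SLC51A and SLC51B take opposite colours in several columns.

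Counts of calls over the 8 tested genes are set beside the share of all tested genes called in the same comparison. At the high dose against vehicle, 7 were called with Zingiberis Rhizoma Recens (3 higher, 4 lower, when 47.9% of all tested genes were called). With Scutellariae Radix 5 were called, all lower (56.7% of all genes), with Sayeok-tang 5 (1 higher, 4 lower; 40.2%), with Zingiberis Rhizoma 4 (2 higher, 2 lower; 46.1%), with Pinelliae Tuber 1 (lower; 15.7%) and with Bojungikgi-tang 1 (lower; 4.55%). Without the 3 libraries that stood apart, Pinelliae Tuber had 3 calls, CYP27A1 (log2 -0.12, edgeR adjusted p = 0.035) and BAAT (-0.42, 0.03) being added; without its own replicate 3 it had 2, and Bojungikgi-tang had 0 without its replicate 3. The shares with Scutellariae Radix and Zingiberis Rhizoma lay near the background. The members' median log2 fold change was -0.19, -0.52, -0.14, 0.09, 0.02 and -0.03 in the same order, beside a median between 0 and 0.01 over all tested genes.

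At the medium dose 7 were called with Zingiberis Rhizoma Recens (3 higher, 4 lower), when 11.3% of all tested genes were, and 6 with Scutellariae Radix (1 higher, 5 lower), when 18.3% were. The count for fresh ginger was 4 or 5 with any replicate of the 2 groups left out. At the Scutellariae Radix low dose 1 was called, when 10.3% of all genes were. That count was 0 without replicate 1 or 3 of vehicle or replicate 3 of the low dose. Nor was any of the 8 genes called by edgeR or DESeq2 at the medium doses of Sayeok-tang (4.22% of all genes), Zingiberis Rhizoma (1.45%), Pinelliae Tuber (0.287%) and Bojungikgi-tang (0.0645%), or at the low doses of Zingiberis Rhizoma (2.12%), Zingiberis Rhizoma Recens (0.602%), Pinelliae Tuber (0.272%), Sayeok-tang (0.0574%) and Bojungikgi-tang (0%). At an unadjusted p below 0.05 there was 1 such gene at 4 of these doses, 2 at the Zingiberis Rhizoma low dose and 0 at the others.

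Between high and low dose, 7 were called in Zingiberis Rhizoma Recens (47.6% of all tested genes), 6 in Zingiberis Rhizoma (47.4%), 6 in Scutellariae Radix (55.7%), 5 in Sayeok-tang (37.6%), 1 in Pinelliae Tuber (10.1%) and 0 in Bojungikgi-tang (1.69%), where 2 had an unadjusted p below 0.05 and 1, NR1H4, was called with DESeq2 (log2 -0.20, adjusted p = 0.037) and without the 3 libraries that stood apart (-0.20, edgeR adjusted p = 0.02). The Zingiberis Rhizoma count was 4 or 5 whichever replicate was left out. Among its calls, BAAT (log2 0.36, edgeR adjusted p = 0.046) was lost without the 3 libraries that stood apart (0.23, 0.25), with no filter on low counts (0.12), with only the groups compared (0.17) and with DESeq2 (0.091). It was also lost without either replicate of the high dose or replicate 1 or 3 of the low dose (log2 0.21 to 0.40, edgeR adjusted p = 0.077 to 0.29). CYP27A1 (log2 0.12, edgeR adjusted p = 0.031) was lost with no filter (0.11), with only the groups compared (0.077) and without replicate 2 of the high dose or replicate 1 or 2 of the low dose (log2 0.07 to 0.11, edgeR adjusted p = 0.06 to 0.39). The Pinelliae Tuber count was 0 without replicate 1 or 2 of the high dose or replicate 2 or 3 of the low dose. Fresh against dried ginger, 4 of the 8 were called at the high dose (23.5% of all tested genes), 6 at the medium dose (7.16%) and 0 at the low dose (0.0359%). Sayeok-tang against Bojungikgi-tang at the high dose gave 3 calls (26.2%), and Pinelliae Tuber against Scutellariae Radix gave 4 (55.9%). Scutellariae Radix high against medium gave 5 (53.8%). The change from low to high dose itself differed for 3 genes between Sayeok-tang and Bojungikgi-tang (13.9% of all tested genes), for 2 between fresh and dried ginger (15.9%) and for 3 between Pinelliae Tuber and Scutellariae Radix (44.4%).

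**Figure D4:**
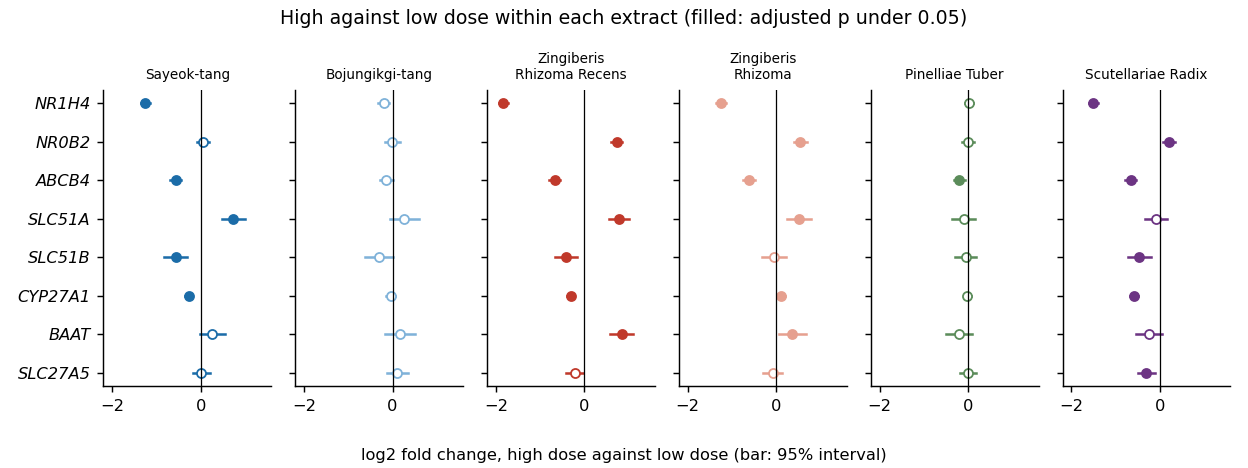
Log2 fold change between the high and the low dose of each of 6 extracts for the 8 tested genes. Points are edgeR estimates, bars their 95% intervals, and filled points have an adjusted p below 0.05; NR1H4 is the lowest point in Sayeok-tang, both gingers and Scutellariae Radix, from -1.83 to -1.25.

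Among the other receptors and regulators of the pathway (16 listed, 14 tested), 4 were called higher and 7 lower at the high dose of Zingiberis Rhizoma Recens, 2 and 8 with Scutellariae Radix, 0 and 7 with Sayeok-tang and 3 and 5 with Zingiberis Rhizoma, when 47.9%, 56.7%, 40.2% and 46.1% of all tested genes were called. The list's median log2 fold change was -0.15, -0.18, -0.14 and -0.04, beside 0 to 0.01 over all tested genes. KLB, the coreceptor that lets FGF19 signal in hepatocytes, had log2 fold changes of -0.80, -0.72, -0.96 and -0.81 in these comparisons, all called. Its partner FGFR4 fell by 0.70 on the log2 scale with Scutellariae Radix and by 0.53 with Zingiberis Rhizoma. RXRA, the partner FXR binds DNA with, fell by 0.56 with Scutellariae Radix and by 0.48 with Sayeok-tang. NR1I2, the xenobiotic receptor PXR, rose by 0.69 with Zingiberis Rhizoma.

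Of 15 further synthesis genes, 9 could be tested, and CYP7A1, the rate-limiting enzyme of the classical route, was not among them at 0 to 1.01 CPM. None was called higher with Zingiberis Rhizoma Recens, Scutellariae Radix or Sayeok-tang, and 7, 7 and 6 were called lower (47.9%, 56.7% and 40.2% of all tested genes were called in either direction). With Zingiberis Rhizoma 1 was higher, the peroxisomal oxidase ACOX2 (log2 0.21, edgeR adjusted p = 0.0045), and 2 were lower (46.1% of all genes). The list's median log2 fold change was -0.37, -0.27, -0.24 and -0.09, beside 0 to 0.01 over all tested genes. AKR1D1, the 5-beta-reductase of the sterol nucleus, fell by 1.25, 1.34, 0.81 and 1.5 on the log2 scale with Zingiberis Rhizoma Recens, Scutellariae Radix, Sayeok-tang and Zingiberis Rhizoma. CYP8B1, the 12-alpha-hydroxylase that leads to cholic acid, fell by 0.79, 0.91, 0.83 and 0.50 in the same order, from a level of 1.3 to 3.42 CPM over the libraries.

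Transport genes went both ways. Of 8 tested, 4 were called higher at the high dose of each of the 4 extracts, and 2 or 3 lower, when 40.2% to 56.7% of all tested genes were called. The list's median log2 fold change was 0.20 with Zingiberis Rhizoma Recens, 0.17 with Scutellariae Radix, 0.23 with Sayeok-tang and 0.34 with Zingiberis Rhizoma. The canalicular conjugate exporter ABCC2 rose by 1.22 on the log2 scale with Zingiberis Rhizoma Recens, 1.21 with Scutellariae Radix, 0.95 with Sayeok-tang and 1.62 with Zingiberis Rhizoma. It also rose with Pinelliae Tuber (0.45) and Bojungikgi-tang (0.43). The basolateral exporter ABCC3 rose by 1.17 with Zingiberis Rhizoma, 0.85 with Scutellariae Radix, 0.46 with Sayeok-tang and 0.21 with Bojungikgi-tang. The uptake carrier SLCO2B1 fell by 0.91, 1.09, 0.84 and 0.71 with Zingiberis Rhizoma Recens, Scutellariae Radix, Sayeok-tang and Zingiberis Rhizoma. The main hepatic uptake carrier SLC10A1 was at most 0.363 CPM and untested.

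All 11 listed further FXR target genes were tested. At the high doses 2 were higher and 5 lower with Zingiberis Rhizoma Recens, 4 and 6 with Scutellariae Radix, 1 and 5 with Sayeok-tang and 3 and 6 with Zingiberis Rhizoma, when 47.9%, 56.7%, 40.2% and 46.1% of all tested genes were called. The list's median log2 fold change was -0.19, -0.37, -0.21 and -0.30. KNG1, which encodes kininogen, fell by 1.91, 2.46, 1.87 and 2.04 on the log2 scale in these. The fibrinogen chain FGA fell by 1.62 with Zingiberis Rhizoma Recens, 1.19 with Sayeok-tang and 1.65 with Zingiberis Rhizoma. The lipoprotein receptor VLDLR rose by 1.19 with Zingiberis Rhizoma Recens, 1.82 with Scutellariae Radix and 1.59 with Zingiberis Rhizoma. Of 7 detoxification genes listed, 4 were tested and none was called higher. With Zingiberis Rhizoma Recens 2 were lower (47.9% of all tested genes were called), with Zingiberis Rhizoma 2 (46.1%), with Scutellariae Radix 3 (56.7%) and with Sayeok-tang 3 (40.2%). The counts with both gingers lay near the background. The bile acid sulfotransferase SULT2A1 was lower in all of these (log2 -0.71, -0.93, -0.77 and -0.34, in the order of KNG1). FGB stands both in this target list and among the hepatocyte markers whose sum was lower at these doses.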

How the data were processed

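RNA of 58 HepG2 libraries was made into strand-keeping libraries and sequenced as paired reads, per the labels' protocols. Per the submitters' processing notes the tools were FastQC 0.11.9, Trim Galore 0.6.5, STAR 2.7.3a and RSEM 1.3.3, on hg38/GRCh38. The authors deposited expected counts per Ensembl gene; the annotation release and the strand setting of counting are not given in the sources used here. The 209 other columns of per-sample values in the table were not used, nor was a positive control compound analysed here. Symbols came from current names (56558 identifiers) or GENCODE 29 (497), and coordinates from GENCODE 29. Expected counts were rounded, genes reaching 1 CPM in 3 or more libraries retained (13945), and edgeR 4.0.16 (R 4.3.3) fitted with TMM scaling and 1 mean for each of 24 groups over all libraries, which share 1 estimate of the spread. Its quasi-likelihood test was read at a Benjamini-Hochberg adjusted p of 0.05 over all tested genes. The method was tested on simulated data. Groups of 1 library were described by values outside the vehicle range and at least 1.5-fold from the vehicle mean, with no test. Named were all 10 genes, and, of each other list, up to 4 called genes with the largest change at each high dose, plus up to 3 genes with the closest group means. The genes and lists were chosen with earlier results of these data known. Alternatives were scaling by DESeq2's size factors (RLE), no filter on low counts, filterByExpr, a replicate block, only the groups compared, DESeq2 1.42.0, and leaving out libraries.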

Additional observations from a re-analysis of the deposited data

Results flagged for a closer look

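Between extracts whose labels share a prefix, the change from low to high dose was compared by a test of the difference itself. The test was edgeR's quasi-likelihood interaction contrast, adjusted over all tested genes. Of the 8 tested genes, 3 differed between the 2 formulas (13.9% of all tested genes) and 2 between the 2 gingers (15.9%). Between Pinelliae Tuber and Scutellariae Radix 3 differed (44.4%), a count that does not exceed the share over all tested genes.

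NR1H4 differed in all 3 pairs. Its high-against-low log2 fold change was -1.26 with Sayeok-tang and -0.20 with Bojungikgi-tang, a difference of -1.05 (SE 0.076, edgeR adjusted p = 1.4e-14). It was -1.83 with Zingiberis Rhizoma Recens and -1.25 with Zingiberis Rhizoma, a difference of -0.58 (SE 0.078, 3e-07). It was 0.03 with Pinelliae Tuber and -1.5 with Scutellariae Radix, a difference of 1.53 (SE 0.069, 8.4e-23).

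CYP27A1 also differed in all 3 pairs, on a smaller scale. The differences were -0.23 for Sayeok-tang minus Bojungikgi-tang (SE 0.065, edgeR adjusted p = 0.01), -0.43 for Zingiberis Rhizoma Recens minus Zingiberis Rhizoma (SE 0.061, 8.5e-07) and 0.58 for Pinelliae Tuber minus Scutellariae Radix (SE 0.058, 2.2e-11). Between the gingers the estimates had opposite signs, -0.31 with fresh and 0.12 with dried ginger. The dried ginger estimate was 0.07 (edgeR adjusted p = 0.39) without replicate 2 of its high dose, and its call was lost under other alternatives as well.

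ABCB4 differed between the formulas by -0.43 (SE 0.097, edgeR adjusted p = 0.0014) and between Pinelliae Tuber and Scutellariae Radix by 0.46 (SE 0.087, 2.6e-05). Between the gingers its difference was -0.05 (SE 0.094) and was not called. The differences between extracts were rerun only with RLE scaling and the replicate block, not with libraries left out. The low doses of Zingiberis Rhizoma and Scutellariae Radix, which enter them, each hold a library that stood apart.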

How the results depend on the processing

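Of 92 called member results, 20 lost the call under at least 1 alternative and none changed sign. The 92 include the differences in dose change between extracts, which were rerun only with RLE scaling and the replicate block. All calls of NR1H4 at the high doses of both gingers, Sayeok-tang and Scutellariae Radix kept their side of the threshold under every alternative run. The Pinelliae Tuber high dose, with 1 call against vehicle, had 3 with RLE scaling and without the 3 libraries that stood apart, and 2 with only the groups compared and with DESeq2. The Scutellariae Radix low dose, with 1 call, had 0 under RLE scaling, filterByExpr, only the groups compared and without those 3 libraries. Bojungikgi-tang high against low, with 0 calls, had 1 without those libraries and with DESeq2. Pinelliae Tuber high against low, with 1 call, had 0 with no filter, with only the groups compared and with DESeq2. With unscaled totals the Coptidis Rhizoma low dose had 0 genes past 1.5-fold, in place of 1. The causes were not tested.

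With 1 replicate left out at a time, counts of calls ranged from 4 to 5 at the Zingiberis Rhizoma Recens medium dose (7 with all libraries) and for Zingiberis Rhizoma high against low (6 with all libraries), 4 to 6 at the Scutellariae Radix medium dose and for fresh against dried ginger at the medium dose (6 each with all libraries), 0 to 1 at the Bojungikgi-tang high and Scutellariae Radix low doses, 1 to 2 at the Pinelliae Tuber high dose and 0 to 1 for Pinelliae Tuber high against low. Other counts moved by at most 1. SLC51B between the formulas at the high dose, not called with all libraries, ranged from -0.47 without Bojungikgi-tang replicate 3 to 0.01 without its replicate 2. In the fit without replicate 3 the calls changed, SLC51B being gained and CYP27A1 (log2 -0.15) lost. ABCB4 at the Bojungikgi-tang high dose against vehicle was -0.18 and not called with all libraries, and a call was gained without replicate 2 (log2 -0.33). Where leaving out a replicate left a single library in a group, it was assumed to vary like the others.

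Replicate numbers did not pair the libraries: of 105 pairs of groups with 3 replicates, 0 had all 3 correlations of same-numbered deviations above 0.1 (range of correlations -0.18 to 0.21). With the replicate block all 7 calls at the Zingiberis Rhizoma Recens high dose and the NR1H4 difference of -1.05 between the formulas stood, and no count of calls changed. Depth limits ABCB11 and FGF19, and at 3 to 7 CPM also SLC51A, SLC51B and BAAT.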
